A study of Mus musculus with 12 samples.

Results

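WNT activation in wild-type epiblast-like cells was described across all genes, pathway by pathway and by level, from messenger RNA sequencing of mouse cultures. Of the 12 libraries of the series, the 6 labelled wild type were used, 3 of epiblast-like cells (EpiLC) and 3 of caudal epiblast-like cells (CEpiLC). Apart from the replicate number, the titles of these 6 differ only in CHIR, the compound CHIR99021 described below. The other 6 libraries came from a line with an inducible SOX2 transgene and entered only the estimate of the spread between replicates. The gene table held 24736 genes, of which 14196 had enough counts to be tested. All 6 cultures were started from the XY HM1 TetON embryonic stem (ES) cell line, a single line that carries the doxycycline-dependent activator rtTA at Rosa26 and serves as the wild type, and they were harvested at 72 h. The ES cells had been grown on fibroblast feeders in serum and LIF, and feeders were removed by adherence before differentiation. EpiLC received N2B27 medium with bFGF at 10 ng/ml and LGK974 at 5 µM for 3 days. CEpiLC received the same medium and, from day 2 to day 3, CHIR99021, whose dose is written in different units in the labels and in the methods and is left out here. No doxycycline was given to either group.

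In the canonical WNT pathway, a ligand bound to a Frizzled and LRP receptor pair stops the destruction complex of AXIN, APC and GSK3 from marking beta-catenin for degradation, and beta-catenin then acts with TCF and LEF factors at target genes. CHIR99021 inhibits GSK3 and so acts below the receptors. LGK974 blocks porcupine, the enzyme that lipidates WNT ligands for secretion, and so keeps ligand made by the cells themselves from being released. In the embryo, WNT together with FGF maintains the caudal epiblast around the primitive streak, from which spinal cord and trunk mesoderm are made, while the anterior epiblast, kept from WNT, gives rise to forebrain.

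Library totals ran from 10408252 counts in CEpiLC replicate 3 to 27337740 in CEpiLC replicate 1, and between 12426 and 12679 genes reached 1 TPM (transcripts scaled for gene length and for the library's total) in a library. Replicates of a group correlated with r of 0.984 to 0.992 on the log2 CPM scale. The lowest values were those of CEpiLC replicate 3, at 0.984 with CEpiLC replicate 1 and with CEpiLC replicate 2, against 0.991 between those 2. The 4 genes taken as markers followed the labels. T, the mesoderm regulator of the streak, was at 0.68, 0.52 and 0.45 TPM in EpiLC and 474, 768 and 892 TPM in CEpiLC. Cdx2, a caudal homeobox gene, was at 0.18, 0 and 0.21 TPM in EpiLC and 314, 169 and 192 TPM in CEpiLC. Axin2, a negative regulator that WNT signalling induces, was at 9.86, 9.86 and 12.8 TPM in EpiLC and 165, 103 and 141 TPM in CEpiLC, and Otx2, an anterior epiblast regulator, was at 166, 176 and 153 TPM in EpiLC and 1.24, 3.95 and 2.67 TPM in CEpiLC. For none of the 4 did the groups overlap. Pou5f1, the defining factor of pluripotent cells, was at 813, 907 and 942 TPM in EpiLC and 831, 993 and 705 TPM in CEpiLC, with overlapping groups and no call.

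The response was broad in number of genes, and genes with large folds took a small part of the RNA. At an adjusted p of at most 0.05 in edgeR, 42.2% of the tested genes were called, 22.1% higher and 20.1% lower in CEpiLC, and the 3 values of one group lay wholly on one side of the other in 52.3%. A difference of more than 1 on the log2 scale, that is, over 2-fold, was reached by 6.6% of genes upwards and 5.64% downwards. The median log2 fold change over all tested genes was 0.01. The 937 genes that rose by more than 1 took 0.541 to 0.575% of all TPM in the EpiLC libraries and 2.26 to 2.64% in the CEpiLC libraries. The 801 genes that fell by more than 1 took 2.19 to 2.30% in EpiLC and 0.573 to 0.672% in CEpiLC. The 2203 genes that rose by 1 or less took 21.4 to 21.6% in EpiLC and 26.01 to 26.4% in CEpiLC, and the 2053 that fell by 1 or less took 25.6 to 25.9% in EpiLC and 19.98 to 20.8% in CEpiLC, so that more TPM moved in genes with small folds. In each case the 3 libraries of a group lay closer to each other than to the other group. The classes were formed by the same comparison of the same libraries, so this separation follows from the choice of genes.

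The share of genes called hardly moved with level above 1 TPM, but the size of the called differences did. Of genes with a mean over both groups under 1 TPM, 30.8% of 1530 were called, against 43.2% of 4097 between 1 and 10 TPM, 43.0% of 6941 between 10 and 100 TPM and 47.3% of 1628 at 100 TPM or more. Called differences over 1 made up 20.4% of genes between 1 and 10 TPM, 6.07% between 10 and 100 TPM and 3.19% at 100 TPM or more. The median standard error of the log2 fold change fell along these 3 classes as well, from 0.21 to 0.09 and 0.06. Smaller differences could thus be called at higher levels, and the part of this in the trend was not tested. In the highest class the calls leaned downwards, with 250 genes higher and 520 lower. Genes that crossed 1 TPM were counted as well. In all, 241 genes were under 1 TPM in every EpiLC library and at 1 TPM or more in every CEpiLC library, and 170 showed the opposite pattern. At 10 TPM in place of 1 on the upper side, 27 genes were gained and 3 (Foxd3, Sez6 and Spon1) were lost.

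**Figure D1:**
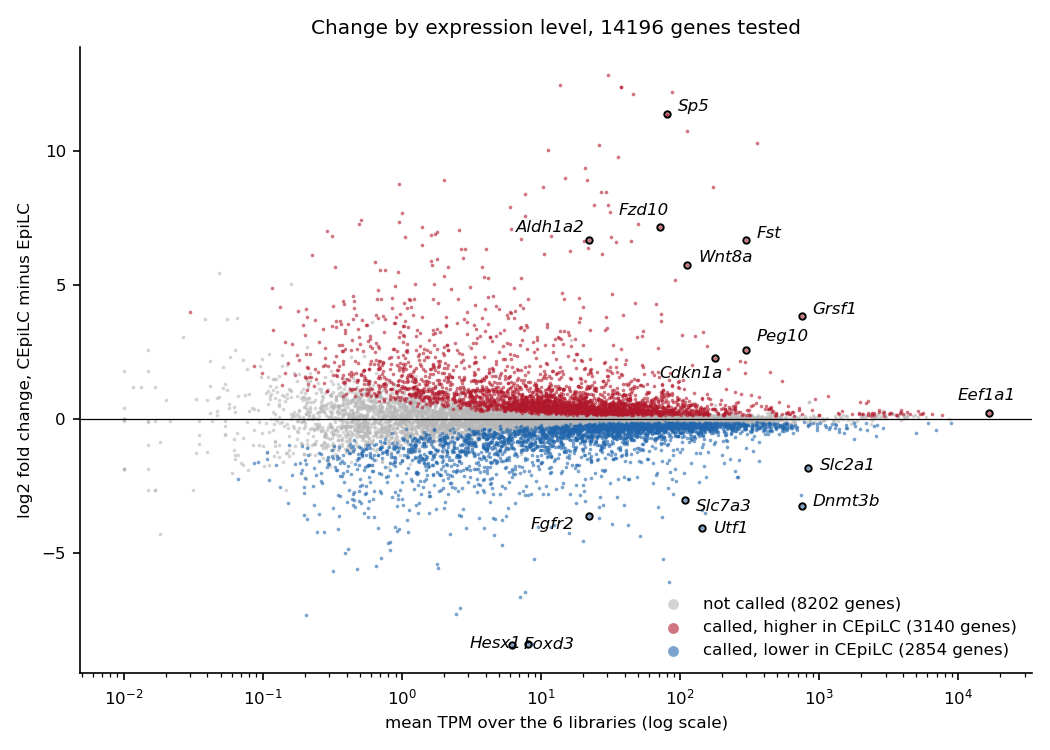
Each point is 1 of the 14196 genes tested, with its mean TPM over the 6 libraries on a log axis and its log2 fold change (CEpiLC minus EpiLC) on the vertical axis. Red points are the 3140 genes called higher and blue points the 2854 called lower in CEpiLC; large differences lie mostly at low and middle levels, with Grsf1, Fst, Dnmt3b, Utf1 and Slc2a1 among the exceptions at 100 TPM or more.

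Among the signalling lists, WNT targets and feedback inhibitors and the WNT ligands had the largest shares of genes that rose. Of 27 tested genes of WNT feedback and targets, 18 rose and 5 fell, with a median log2 fold change of 1.01. Sp5, a zinc finger factor and direct target of beta-catenin, was at 0.05, 0.05 and 0.07 TPM in EpiLC and 205, 111 and 171 TPM in CEpiLC, and since no EpiLC library held more than 3 counts its rise is given as a bound of at least 757-fold. Notum, an enzyme that strips the lipid from WNT ligands, was at 0.79, 0.48 and 0.91 TPM in EpiLC and 104, 63.9 and 39.04 TPM in CEpiLC (log2 fold change 6.61 ± 0.38, adjusted p = 3.71e-08, edgeR; SE after ±). Sp8, a relative of Sp5, was at 0.62, 0.29 and 0.26 TPM in EpiLC and 29.99, 33.3 and 32.6 TPM in CEpiLC. The groups were far apart for each, and among the CEpiLC libraries Notum was highest in replicate 1 and lowest in replicate 3 while Sp8 was level. Dkk4, a secreted inhibitor of LRP receptors, was at 0 in all EpiLC libraries and at 2.70, 0.54 and 2.48 TPM in CEpiLC, a rise of at least 5.23-fold. Lef1, a TCF/LEF factor, rose from 31.8 to 106 TPM on average. Ccnd2, cyclin D2, was at 8.50, 9.40 and 9.77 TPM in EpiLC and 139.8, 131 and 139 TPM in CEpiLC (log2 fold change 3.90 ± 0.07, adjusted p = 1.61e-12, edgeR).

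The members of the same list that fell were 2 Frizzled-type inhibitors, a receptor and 2 regulators of growth or pluripotency. Sfrp1, a secreted Frizzled-related protein that binds WNT ligands, was at 40.5, 33.99 and 28.7 TPM in EpiLC and 12.2, 10.8 and 10.8 TPM in CEpiLC (log2 fold change -1.60 ± 0.19, adjusted p = 2.3e-05, edgeR). Fzd7, a receptor counted in this list and among the receptors, was at 104, 102 and 114 TPM in EpiLC and 11.8, 19.04 and 31.6 TPM in CEpiLC (log2 fold change -2.39 ± 0.26, adjusted p = 1.17e-05). Both had groups that did not overlap. Sall4, Sfrp2 and Myc fell by less, by 0.31, 0.45 and 0.52 on the log2 scale, and Sfrp2 and Myc had overlapping groups. Sfrp2 was not called without EpiLC replicate 1 or 2 or CEpiLC replicate 2 or 3 (-0.37 to -0.41), nor Myc without any library but CEpiLC replicate 3 (-0.34 to -0.56). Without EpiLC replicate 1 or EpiLC replicate 2, 3 members fell.

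The 250 bases before the start of each gene were searched on both strands for CTTTGAT, the core letters bound by TCF and LEF factors (ATCAAAG on the other strand). Of 32851 such windows, 3.21% held it. The other shares are counted by gene, and a gene was scored if any of its windows held the letters. They were 2.74% of the 11004 tested genes with a window, 5.11% of 685 genes that rose by more than 1 and 2.32% of 604 that fell by more than 1. Of the 11 risen WNT feedback and target genes with a window, 2 held it, Sp5 and Tnfrsf19. Both windows are shown from RefSeq (GRCm38.p6), 5′ to 3′ towards the gene, because they place the letters beside 2 genes with a large rise; the capitals mark the match, which is a description of the sequence and not a shown binding site. Tnfrsf19, a receptor of the TNF family and a WNT target, was at 13.5, 7.75 and 9.69 TPM in EpiLC and 117, 74.95 and 102 TPM in CEpiLC (log2 fold change 3.28 ± 0.20, adjusted p = 7.4e-08, edgeR).
Sp5, chr2:70474673-70474922, plus strand, match starting at -104: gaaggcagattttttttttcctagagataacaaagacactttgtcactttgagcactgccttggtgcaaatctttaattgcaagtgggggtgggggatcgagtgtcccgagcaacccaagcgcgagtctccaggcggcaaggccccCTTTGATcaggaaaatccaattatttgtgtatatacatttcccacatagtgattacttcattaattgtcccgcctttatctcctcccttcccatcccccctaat
Tnfrsf19, chr14:61037988-61038237, minus strand, match starting at -202: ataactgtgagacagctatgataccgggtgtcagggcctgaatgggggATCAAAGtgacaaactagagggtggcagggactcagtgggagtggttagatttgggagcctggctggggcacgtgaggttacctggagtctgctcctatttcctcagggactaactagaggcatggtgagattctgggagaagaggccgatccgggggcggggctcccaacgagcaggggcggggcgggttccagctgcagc

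WNT ligands were made at much higher RNA levels in CEpiLC, in a medium that blocks their secretion. Of 22 tested genes of WNT ligands and secretion, 15 rose and 3 fell (median log2 fold change 2.68). Of the 16 tested genes that code for WNT ligands proper, 11 rose and 2 fell, and the summed level of all 19 listed went from 16.1 to 20.2 TPM in the EpiLC libraries to 398 to 477 TPM in the CEpiLC libraries. Wnt8a was the most abundant, at 4.75, 2.63 and 5.26 TPM in EpiLC and 270.1, 264 and 128 TPM in CEpiLC (log2 fold change 5.74 ± 0.35, adjusted p = 7.4e-08, edgeR). Wnt3a, the ligand needed for trunk mesoderm, was at 0.21, 0.08 and 0.22 TPM in EpiLC and 51.8, 48.1 and 75.9 TPM in CEpiLC. Wnt6 was at 0.05, 0 and 0.15 TPM, which is at the floor of 3 counts, and at 52.9, 35.1 and 35.4 TPM, a rise of at least 189-fold. No EpiLC value of these 3 genes came near a CEpiLC value. Rspo3, a secreted R-spondin that amplifies signalling at the receptor, was at 0.85, 0.7 and 1.13 TPM in EpiLC and 47.3, 69.7 and 148 TPM in CEpiLC, and here CEpiLC replicate 3 was the highest. Wnt10a, listed at 0, 0.05 and 0 TPM in EpiLC, reached 3.71, 1.58 and 4.32 TPM, at least 13.9-fold higher. The 3 that fell were low in both groups. Wnt7b went from 1.45 to 0.39 TPM and Wnt4 from 1.61 to 0.71 TPM on average, and the third was Rspo2, an R-spondin.

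Frizzled and ROR receptors were called in both directions. Of 30 tested genes of WNT receptors and the destruction complex, 7 rose and 9 fell, and the median was -0.01. Fzd10 was at 1.02, 1.24 and 0.69 TPM in EpiLC and 169, 140.3 and 121 TPM in CEpiLC (log2 fold change 7.14 ± 0.18, adjusted p = 3.34e-11, edgeR), and its CEpiLC level was the highest of the 10 Frizzled genes. Fzd5 was at 50.9, 33.7 and 21.7 TPM in EpiLC and 5.47, 6.17 and 4.82 TPM in CEpiLC (log2 fold change -2.69 ± 0.24, adjusted p = 1.64e-06). Fzd8 was at 7.14 ± 0.62 TPM in EpiLC and 1.41 ± 0.54 TPM in CEpiLC (SD; log2 fold change -2.41 ± 0.26, adjusted p = 9.47e-06). Each of the 3 had groups without overlap. In EpiLC the highest Frizzled levels were those of Fzd7 and Fzd2, and both were lower in CEpiLC, with Fzd7 going from 107 to 20.8 TPM and Fzd2 from 72.7 to 33.1 TPM on average. The ROR co-receptors, which carry non-canonical WNT signals, also went opposite ways. Ror2 was at 13.4, 10.5 and 12.7 TPM in EpiLC and 69.6, 53.96 and 47.3 TPM in CEpiLC, and Ror1 was at 27.6, 24.6 and 21.02 TPM in EpiLC and 5.28, 5.72 and 2.91 TPM in CEpiLC. Ctnnb1, which codes for beta-catenin itself, was at 620.5, 588 and 586 TPM in EpiLC and 525, 499 and 502 TPM in CEpiLC, a small fall of 0.23 ± 0.05 on the log2 scale with no overlap of groups (edgeR, adjusted p = 0.0045). Members of the destruction complex are named here for their role and outside the rule for named genes. In this list Apc rose from 30.8 to 37.3 TPM and Csnk1a1, the kinase that primes beta-catenin, fell from 195 to 167 TPM on average, while Axin1, Gsk3a and Gsk3b had no call, with means going from 48.03 to 47.8 TPM, from 82.2 to 80.6 TPM and from 31.6 to 32.2 TPM. Axin2, the scaffold counted among the targets, was at 9.86, 9.86 and 12.8 TPM in EpiLC and 165, 103 and 141 TPM in CEpiLC.

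**Figure D2:**
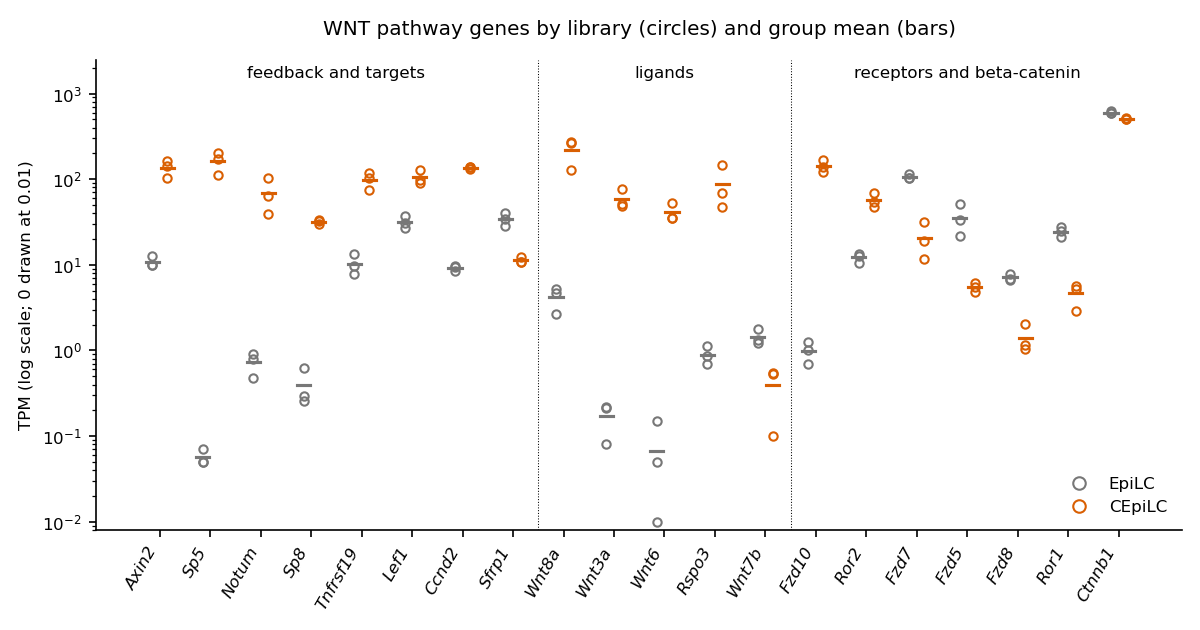
TPM of 20 WNT pathway genes on a log axis, with a circle for each library, a bar for each group mean, EpiLC in grey and CEpiLC in orange. Sp5, Wnt3a, Wnt6 and Fzd10 were at about 1 TPM or less in every EpiLC library and over 30 TPM in every CEpiLC library, whereas Fzd7, Fzd5, Fzd8 and Ror1 were lower in all 3 CEpiLC libraries.

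FGF ligands, receptors and feedback genes were each called in both directions. Of 16 tested FGF ligands, 4 rose and 3 fell, 43.8% called beside 42.2% of all tested genes. Fgf8, the main FGF of the streak, was at 0.33, 0.12 and 0.42 TPM in EpiLC, where no library held more than 3 counts, and at 36.8, 67.3 and 82.2 TPM in CEpiLC, at least 133-fold higher. Fgf17, a close relative, was at 0.3, 1.04 and 0.75 TPM in EpiLC and 11.4, 10.4 and 18.2 TPM in CEpiLC (log2 fold change 4.26 ± 0.34, adjusted p = 7.5e-07, edgeR). Fgf3 rose from 0.567 to 3.41 TPM on average and Fgf18 from 1.06 to 2.26 TPM, although without CEpiLC replicate 1 Fgf18 was not called (0.85 on the log2 scale). The falls were of Fgf5, from 79.5 to 5.19 TPM, Fgf14, from 6.01 to 1.99 TPM, and Fgf11, from 5.49 to 2.79 TPM. With the stricter filter on low counts, 2 ligands rose. The summed level of all FGF ligands overlapped between groups, at 117 to 126 TPM in EpiLC and 85.8 to 165 TPM in CEpiLC. Of 26 tested receptors and feedback genes of the ERK pathway, 8 rose and 6 fell. Fgfr2, a receptor, was at 49.8, 43.4 and 28.98 TPM in EpiLC and 3.79, 4.24 and 1.65 TPM in CEpiLC (log2 fold change -3.61 ± 0.26, adjusted p = 3.02e-07, edgeR), the largest fall of the list, and Fgfr3 fell from 2.74 to 0.617 TPM, while Fgfr1, the most abundant receptor, had no call and went from 105 to 103 TPM. Among genes that FGF signalling induces, some rose and others fell. Il17rd was at 14.5, 11.9 and 12.7 TPM in EpiLC and 43.4, 38.1 and 57.4 TPM in CEpiLC and Spred1 at 31.5, 28.4 and 32.2 TPM in EpiLC and 72.9, 81.3 and 68.1 TPM in CEpiLC. Etv4, an ETS factor, was at 48.1, 44.8 and 60.9 TPM in EpiLC and 128, 74.03 and 167 TPM in CEpiLC. All 3 had groups without overlap. In the other direction, Dusp5, an ERK phosphatase, fell from 8.79 to 5.00 TPM and Etv1, an ETS factor, from 14.3 to 9.84 TPM, and Dusp4 had no call, at 116, 75.6 and 111 TPM in EpiLC and 148, 110.2 and 199 TPM in CEpiLC. Dusp5 was not called without EpiLC replicate 1 (-0.83 on the log2 scale) or CEpiLC replicate 1 (-0.66). Nor was Etv1 called without EpiLC replicate 3 (-0.48) or CEpiLC replicate 1 (-0.34). Without EpiLC replicate 2 or CEpiLC replicate 3 the number of the list that rose was 5, and without CEpiLC replicate 1 the number that fell was 2.

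Of 21 tested genes of the Nodal and activin pathway, 10 rose and 3 fell (median 0.32). Fst, follistatin, which binds and neutralises activin, was at 7.60, 4.43 and 4.94 TPM in EpiLC and 564, 614 and 584 TPM in CEpiLC (log2 fold change 6.66 ± 0.16, adjusted p = 1.7e-11, edgeR). Its CEpiLC values were close to each other and far above every EpiLC value, and it was the most abundant of the list there. Fst lies on chromosome 13 from 114452262 to 114458989 in GRCm38.p6. Lefty2, an inhibitor of Nodal, was at 0.55, 0.25 and 0.18 TPM in EpiLC and 5.06, 12.2 and 24.6 TPM in CEpiLC, and Tdgf1, the Nodal co-receptor Cripto, was at 0.72, 1.06 and 0.72 TPM in EpiLC and 2.97, 18.9 and 13.9 TPM in CEpiLC. Nodal itself was at 0.75, 1.17 and 0.29 TPM in EpiLC and 7.98, 21.1 and 13.2 TPM in CEpiLC. For these 3 genes CEpiLC replicate 1 was the lowest of its group and still above every EpiLC library. Gdf3, a Nodal-like ligand, fell from 7.16 to 2.42 TPM on average; the other falls were of Gdf1 and of Foxh1, whose groups overlapped. Without replicate 1 or replicate 2 of either group neither was called (Gdf1 -2.25 to -2.44, Foxh1 -0.17 to -0.23), and Foxh1 was not called with the replicate number as a block (-0.25). Without EpiLC replicate 2 or CEpiLC replicate 2, 1 member of the list fell.

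In the BMP pathway 11 of 26 tested genes rose and 3 fell (median 0.46). The ligands Bmp2 and Bmp5 stayed low, at 1.86 and 1.42 TPM on average in CEpiLC, after 0.32 and 0.1 TPM in EpiLC. Targets went both ways. Msx1, a homeobox target, was at 0.41, 0.44 and 0.4 TPM in EpiLC and 7.05, 2.64 and 12.8 TPM in CEpiLC (log2 fold change 4.09 ± 0.64, adjusted p = 0.000243, edgeR), whereas Id2, an inhibitor of basic helix-loop-helix factors, was at 26.4, 16.6 and 13.2 TPM in EpiLC and 4.80, 5.97 and 2.74 TPM in CEpiLC (log2 fold change -2.01 ± 0.30, adjusted p = 0.000144). The groups of both genes were apart. Id3, the most abundant member, was at 92.7, 79.1 and 85.2 TPM in EpiLC and 86.6, 63.6 and 54.2 TPM in CEpiLC, with overlapping groups and no call, although with the replicate number as a block it was called (log2 fold change -0.33), as it was without CEpiLC replicate 1 (-0.54).

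Genes of Notch and of the segmentation clock, the oscillating gene set of the presomitic mesoderm, were called mostly upwards, and several had a wide spread inside CEpiLC. Of 23 tested genes, 12 rose and 1, Rbpj, fell (median 0.59). Hes7, a clock repressor, was at 0.35, 0.38 and 1.10 TPM in EpiLC and 42.1, 32.3 and 115 TPM in CEpiLC (log2 fold change 6.78 ± 0.69, adjusted p = 6.13e-06, edgeR). Tbx6, which directs cells to paraxial mesoderm, was at 0.41, 0.38 and 0.37 TPM in EpiLC and 10.9, 23.6 and 86.2 TPM in CEpiLC. Msgn1, another paraxial regulator, was at 0 in each EpiLC library and at 64.5, 94.98 and 364 TPM in CEpiLC, at least 157-fold higher. In all 3, CEpiLC replicate 3 was the highest, by over 2-fold. Falls were few in every setting, from 1 to 4, and reached 2 or 3 with any 1 of EpiLC replicate 3 or the 3 CEpiLC replicates left out and 2 with the replicate block, while Rbpj itself was not called without EpiLC replicate 2 (-0.20).

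Retinoic acid genes were called only upwards, hedgehog genes mostly upwards and Hippo genes mostly downwards. Of 17 tested genes of retinoic acid, 8 rose and 0 fell (median 0.50). The 8 were 47.1% of those tested, beside 42.2% called and 22.1% called higher among all tested genes. Aldh1a2, which makes retinoic acid, was at 0.43, 0.33 and 0.54 TPM in EpiLC and 11.2, 16.3 and 104 TPM in CEpiLC and Stra6, which takes up retinol, at 1.88, 1.05 and 0.92 TPM in EpiLC and 25.3, 11.7 and 5.82 TPM in CEpiLC. Replicate 3 was the highest CEpiLC library for Aldh1a2 and the lowest for Stra6. Rdh10, which makes the precursor retinal, rose from 5.80 to 12.3 TPM. At an unadjusted p of at most 0.05, 1 retinoic acid gene was lower, DESeq2 called 0 lower, and without EpiLC replicate 3 or CEpiLC replicate 3 edgeR called 1 lower. Of 14 tested hedgehog genes, 6 rose and 1 fell, and 2 fell without CEpiLC replicate 1 or with the replicate block. In the reported fit 50% of them were called, beside 42.2% of all tested genes. Gli1, a direct readout of the pathway, was at 0.85, 0.64 and 1.00 TPM in EpiLC and 5.11, 5.22 and 2.74 TPM in CEpiLC (log2 fold change 2.44 ± 0.26, adjusted p = 9e-06, edgeR), and Boc, a co-receptor, rose from 2.38 to 6.10 TPM. Shh had too few counts to test and Ihh was at or below 0.173 TPM on average. Of 20 tested genes of the Hippo pathway and YAP, 4 rose and 8 fell (median -0.15). Ctgf, a YAP target, was at 27.5, 37.05 and 47.1 TPM in EpiLC and 4.93, 9.72 and 9.96 TPM in CEpiLC (log2 fold change -2.21 ± 0.25, adjusted p = 1.51e-05, edgeR). Ajuba, an adaptor that restrains LATS kinases, was at 126, 146 and 112 TPM in EpiLC and 51.6, 50.7 and 46.9 TPM in CEpiLC, and Wwc1, an upstream activator, was at 55.8, 61.6 and 54 TPM in EpiLC and 23.8, 25.5 and 23.8 TPM in CEpiLC. The groups of the 3 did not overlap. Without EpiLC replicate 2 the number of Hippo genes that fell was 5.

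Eph receptors and ephrins, which set repulsion and boundaries between cells, were called in 17 of 21 tested genes, 12 higher and 5 lower (median 0.54). Efnb1 was at 3.58, 2.01 and 2.71 TPM in EpiLC and 32.7, 32.9 and 14.1 TPM in CEpiLC (log2 fold change 3.27 ± 0.30, adjusted p = 2.21e-06, edgeR) and Epha2 at 11.3, 9.62 and 11.4 TPM in EpiLC and 72.7, 65.3 and 56.2 TPM in CEpiLC (log2 fold change 2.60 ± 0.13, adjusted p = 1.12e-08). Efna1 rose from 2.11 to 16.5 TPM. Ephb1, Epha8 and Efna5 fell from 10.6 to 3.19 TPM, from 2.96 to 1.01 TPM and from 15 to 7.33 TPM in turn. The groups of Efnb1 and Epha2 did not overlap. Without EpiLC replicate 3, CEpiLC replicate 1 or CEpiLC replicate 3, the number that fell was 3.

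**Figure D3:**
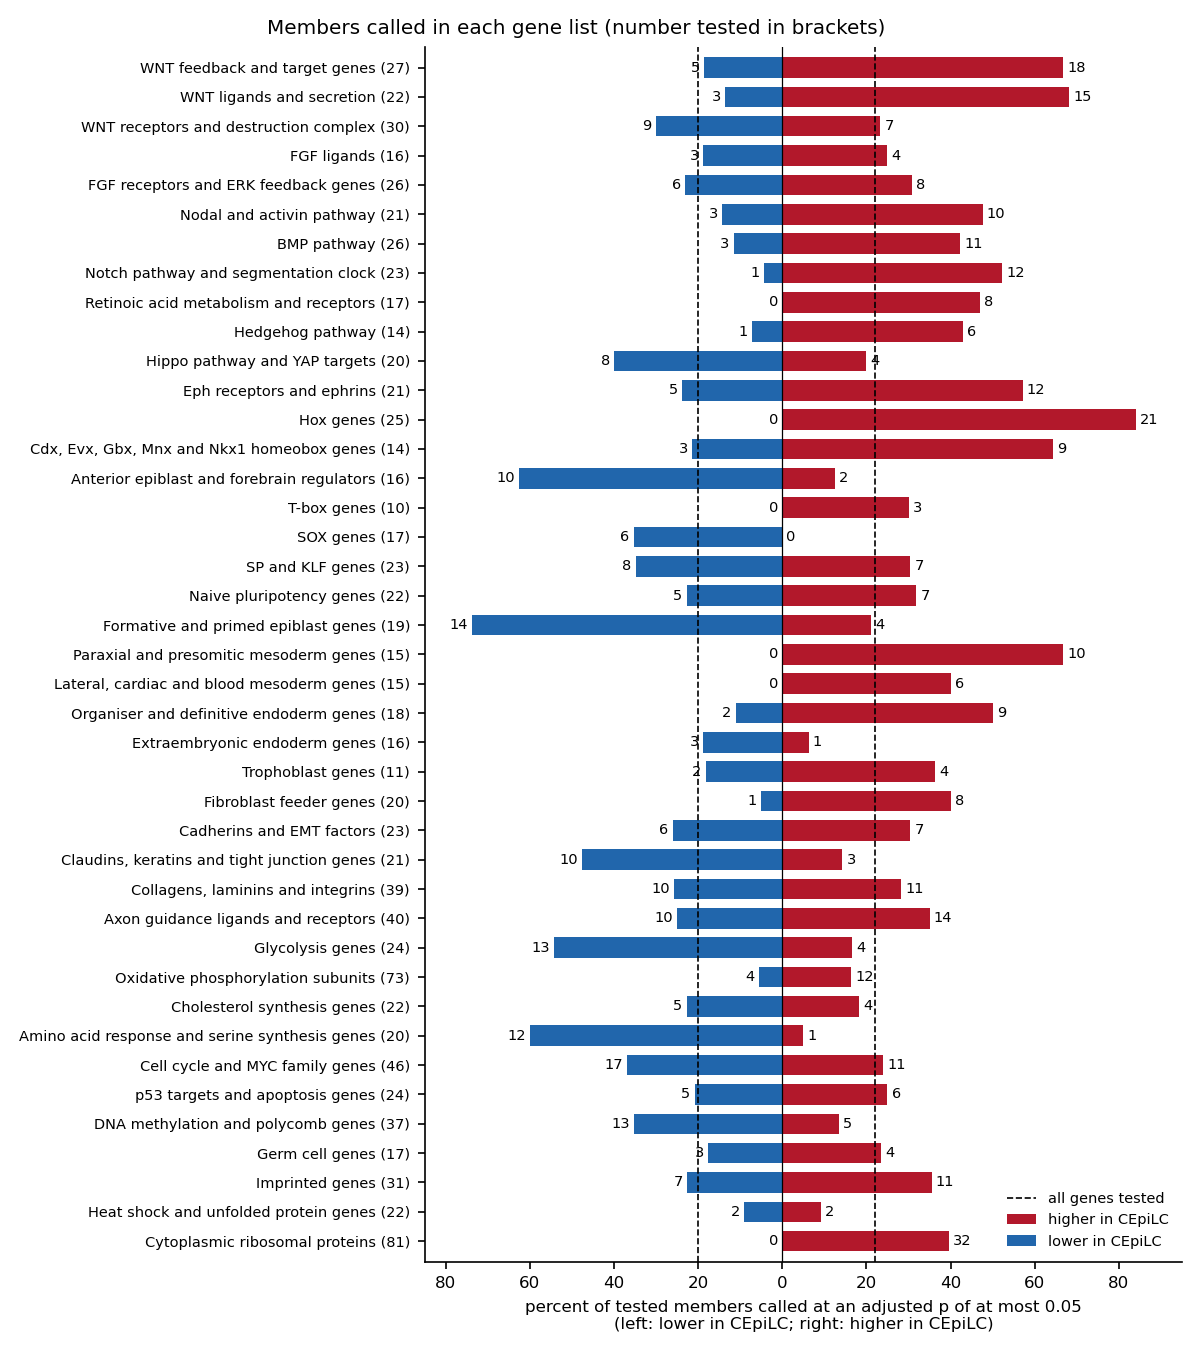
Percent of the tested members of 41 gene lists called higher (red, to the right) or lower (blue, to the left) in CEpiLC, with the numbers of members at the bar ends. The dashed lines mark the 22.1% higher and 20.1% lower among all tested genes; Hox genes reach 84% to the right and formative and primed epiblast genes 73.7% to the left, while oxidative phosphorylation and heat shock genes lie inside the lines on both sides.

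Most tested Hox genes rose from near absence. Of 39 listed, 25 were tested, 21 rose and 0 fell in edgeR (0 lower at an unadjusted p of at most 0.05 and 0 in DESeq2); 18 were at the floor of 3 counts or fewer per library in EpiLC. These genes passed the filter on low counts mainly through CEpiLC, so that the count is given as a description. The median log2 fold change of 6.33 is 3.90 with genes at the floor set to their bounds. All 10 tested genes numbered 1 to 4 rose, to a summed 233 to 543 TPM in the CEpiLC libraries, as did 11 of 12 tested genes numbered 5 to 9, to 91.5 to 283 TPM. Genes numbered 1 to 4 had the higher sum in CEpiLC replicates 2 and 3, and those numbered 5 to 9 in replicate 1 (283 against 242 TPM). Of the 12 listed genes numbered 10 to 13, 3 could be tested and 0 rose in edgeR (0 at an unadjusted p of at most 0.05), and their summed level was 0.43 to 0.55 TPM in EpiLC and 0.5 to 1.98 TPM in CEpiLC. The B cluster carried most of the RNA, at 257 to 619.8 TPM in the CEpiLC libraries, against 60.2 to 109.7 TPM for A, 5.67 to 16.1 TPM for C and 2.88 to 4.84 TPM for D. Hoxb1 was at 84.2, 119 and 283 TPM in CEpiLC, at least 751-fold higher, and Hoxb2 at 58.04, 40.1 and 116 TPM, at least 252-fold higher. Hoxb8 was at 0.15, 0.04 and 0.06 TPM in EpiLC and 59.8, 23.2 and 44.6 TPM in CEpiLC. Hoxb1 and Hoxb2 were highest in CEpiLC replicate 3 and Hoxb8 in replicate 1, and replicate 2 was the highest for 0 of the 21 genes, with a median over them of 56.3% of the CEpiLC mean, although for Hoxb1 and Hoxd4 replicate 1 was lower. With a stricter filter on low counts, 13 Hox genes rose.

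Other homeobox genes of the caudal embryo were called mostly upwards. Of 14 tested genes of the Cdx, Evx, Gbx, Mnx, Nkx1 and Pbx families, 9 rose and 3 fell (median 1.71). Evx1 was at 47.9, 32.3 and 76.2 TPM in CEpiLC, at least 345-fold higher than in EpiLC, and Cdx4 at 34.6, 10.5 and 43.99 TPM, at least 102-fold higher. Gbx2, which marks the posterior side of the later midbrain boundary and is also used as a naive pluripotency gene, was at 7.69, 4.19 and 7.90 TPM in EpiLC and 158, 122 and 101 TPM in CEpiLC (log2 fold change 4.29 ± 0.28, adjusted p = 1.31e-07, edgeR). The Hox cofactors Pbx2 and Pbx3 fell, by 0.51 and 0.64 on the log2 scale, each without overlap of groups. Fewer cells of a type and less RNA per cell cannot be told apart in these bulk libraries, here and for every fall below.

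Among anterior regulators, falls outnumbered rises. Of 16 tested regulators of anterior epiblast and forebrain, 10 fell and 2 rose (median -2.39). Hesx1, a forebrain repressor, was at 29.5, 15.1 and 3.57 TPM in EpiLC and 0.07, 0 and 0 TPM in CEpiLC, at least 28.6-fold lower. Six3 was at 8.47, 5.16 and 0.91 TPM in EpiLC and 0, 0 and 0.15 TPM in CEpiLC, at least 32.2-fold lower. Both varied widely within EpiLC, where replicate 1 was the highest and replicate 3 the lowest. Zic2 was at 142, 169.8 and 152 TPM in EpiLC and 27.3, 46.5 and 19.3 TPM in CEpiLC (log2 fold change -2.29 ± 0.26, adjusted p = 1.8e-05, edgeR). Its groups did not overlap. With the stricter filter on low counts, 5 members fell. Of 10 tested T-box genes, 3 rose, which were T, Tbx6 and Eomes, and 0 fell in edgeR (0 at an unadjusted p of at most 0.05, 0 in DESeq2 and 1 with no filter on low counts). The 3 were 30% of those tested, beside 42.2% called and 22.1% called higher among all tested genes. Eomes was not called without EpiLC replicate 1 or CEpiLC replicate 2 or 3 (1.13 to 1.39). Of 17 tested SOX genes, 0 rose and 6 fell (median -0.71; in edgeR 2 were higher at an unadjusted p of at most 0.05, and 1 in DESeq2; edgeR called 1 higher without EpiLC replicate 1 or without CEpiLC replicate 2). The 6 that fell were 35.3% of those tested, beside 42.2% called and 20.1% called lower among all tested genes. Sox9 went from 8.54 to 2.48 TPM and Sox12 from 41.5 to 20.5 TPM on average.

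SP and KLF zinc finger genes were divided, 7 higher and 8 lower of 23 tested. Klf5 was at 11.7, 11.04 and 11.8 TPM in EpiLC and 32.9, 32.5 and 39.9 TPM in CEpiLC (log2 fold change 1.61 ± 0.22, adjusted p = 7.5e-05, edgeR), while Klf6 was at 85.1, 92.3 and 81.8 TPM in EpiLC and 30.8, 34.2 and 26.7 TPM in CEpiLC (log2 fold change -1.49 ± 0.10, adjusted p = 1.69e-07) and Klf7 at 14.7, 16.5 and 16.6 TPM in EpiLC and 6.70, 5.28 and 5.94 TPM in CEpiLC. Klf2, a factor of naive pluripotency, was at 7.52, 5.36 and 11.7 TPM in EpiLC and 3.05, 3.57 and 0.96 TPM in CEpiLC. The groups of the 4 did not overlap.

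Formative and primed epiblast genes, which define EpiLC, had the largest share called of the 41 lists, with 14 of 19 lower and 4 higher (median -1.89). Dnmt3b, a DNA methyltransferase, was at 1196, 1365 and 1500.2 TPM in EpiLC and 168, 158 and 108 TPM in CEpiLC (log2 fold change -3.22 ± 0.16, adjusted p = 1.17e-08, edgeR). Pim2, a kinase, was at 1240.3, 1255 and 1422 TPM in EpiLC and 210.1, 248 and 89.1 TPM in CEpiLC (log2 fold change -2.83 ± 0.30, adjusted p = 8.13e-06). Car4, a carbonic anhydrase, was at 145, 171 and 126 TPM in EpiLC and 3.70, 4.82 and 3.30 TPM in CEpiLC. Foxd3 was at 11.9, 10.5 and 14.7 TPM in EpiLC and 0.03, 0 and 0.08 TPM in CEpiLC, at least 50.9-fold lower. The groups were separate for each. The 4 that rose were Wnt8a, Lef1, Etv4 and Lin28b, the last by 0.18 and with no call when any library but CEpiLC replicate 3 was left out (0.14 to 0.19), nor with RLE scaling, no filter, the stricter filter or DESeq2 (0.17 in each). Naive pluripotency genes were mixed, 7 higher and 5 lower of 22 tested (median 0.30). Utf1, a chromatin factor of pluripotent cells, was at 229.9, 291 and 286 TPM in EpiLC and 15.2, 14.6 and 19.1 TPM in CEpiLC (log2 fold change -4.06 ± 0.20, adjusted p = 9.57e-09, edgeR), and Tfcp2l1, a naive factor, was at 1.44, 1.51 and 1.62 TPM in EpiLC and 6.49, 5.29 and 4.80 TPM in CEpiLC. Nanog, named here because it is the best-known member and outside the rule for named genes, was at 12.97, 20.7 and 15.7 TPM in EpiLC and 10.9, 31.2 and 6.35 TPM in CEpiLC, with no call (log2 fold change 0.01 ± 0.48, adjusted p = 0.994, edgeR). Without EpiLC replicate 3 or CEpiLC replicate 1 the number of naive genes that fell was 3.

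Genes of mesoderm and endoderm were called mostly upwards, and among the 41 lists the paraxial one had the largest spread between CEpiLC libraries. Of 15 tested genes of paraxial and presomitic mesoderm, 10 rose and 0 fell in edgeR (median 3.19, or 2.99 with floor genes at their bounds; 0 lower at an unadjusted p of at most 0.05 and 0 in DESeq2), and 10 also rose without CEpiLC replicate 3. The median standard deviation between CEpiLC libraries was 0.86 on the log2 scale over the 15 genes, against 0.12 over all tested genes. Of the 10 that rose, 9 were highest in replicate 3, where their median was 216% of the CEpiLC mean, against 33.8% in replicate 1 and 53.5% in replicate 2. Over the 937 genes that rose by more than 1, the same 3 medians were 91.6% in replicate 1, 95.7% in replicate 2 and 108% in replicate 3. The replicates have no order, and the library with the highest values was the one with the fewest counts, whose part in this spread was not tested. Of 18 tested genes of the organiser and definitive endoderm, 9 rose and 2 fell (median 1.57). Mixl1, a streak homeobox gene, was at 0.81, 0.32 and 1.19 TPM in EpiLC and 24.6, 42.1 and 96.2 TPM in CEpiLC (log2 fold change 6.17 ± 0.64, adjusted p = 7.38e-06, edgeR). Foxa2, of node and endoderm, was at 0.24, 0.21 and 0.14 TPM in EpiLC and 2.53, 12.9 and 8.96 TPM in CEpiLC, and Lhx1 was at 0.14, 0.19 and 0.05 TPM in EpiLC and 1.38, 8.07 and 12.7 TPM in CEpiLC. Replicate 1 was the lowest CEpiLC library for each of these, with a median of 45.03% of the mean over the 9 genes, and still above every EpiLC library. Trh, which codes for the precursor of a releasing hormone, fell from 69.5 to 14.7 TPM. Of 15 tested genes of lateral, cardiac and blood mesoderm, 6 rose and 0 fell in edgeR (1 lower at an unadjusted p of at most 0.05, 0 in DESeq2, and 1 called without CEpiLC replicate 3). These 6 were 40% of the tested members, beside 42.2% called and 22.1% called higher among all tested genes. Lmo2 was at 2.53, 3.33 and 3.01 TPM in EpiLC and 21.3, 20.96 and 29.96 TPM in CEpiLC (log2 fold change 3.02 ± 0.35, adjusted p = 2.06e-05, edgeR), and Aplnr, the apelin receptor, was at 0.26, 0.17 and 0.08 TPM in EpiLC and 20.4, 56.5 and 66.1 TPM in CEpiLC. The number that rose was 2 without EpiLC replicate 1 and 3 without EpiLC replicate 2 or CEpiLC replicate 2.

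**Figure D4:**
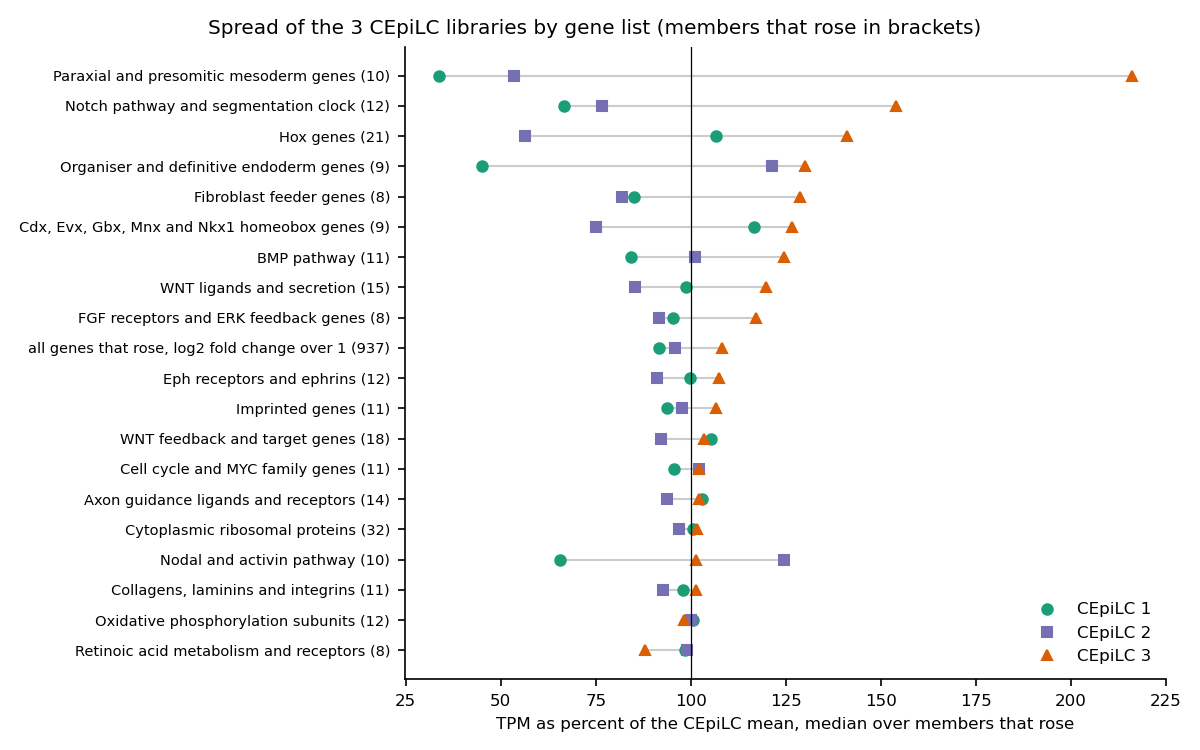
For each gene list with 8 or more members that rose, the median over those members of a library's TPM as a percent of the CEpiLC mean, for CEpiLC replicate 1 (circle), 2 (square) and 3 (triangle). Replicate 3 stands at 216% for paraxial and presomitic mesoderm genes and at 154% for Notch and clock genes, while the 3 libraries lie between 91.6 and 108% over all genes that rose by more than 1.

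Markers of other cell types that the cultures could hold did not give one picture. Of 20 tested fibroblast feeder genes, 8 rose and 1 fell, 45% called beside 42.2% of all tested genes. Their summed level was 245 to 385 TPM in EpiLC and 298 to 548 TPM in CEpiLC, so that the groups overlapped. Pdgfra, which paraxial mesoderm also expresses, was at 0.35, 0.46 and 0.63 TPM in EpiLC and 3.34, 6.33 and 17.4 TPM in CEpiLC, and Fn1, fibronectin, was at 51.1, 49.5 and 71.8 TPM in EpiLC and 90.9, 107 and 263 TPM in CEpiLC, both highest in CEpiLC replicate 3. The next members were chosen after their values were seen. Col1a2, a collagen chain, rose from 4.55 to 12.1 TPM and Prrx1, a mesenchymal homeobox gene, from 0.527 to 1.39 TPM on average. Col1a1, Col3a1 and Dcn had no call and went from 7.94 to 6.29 TPM, from 4.03 to 2.94 TPM and from 1.95 to 1.40 TPM. Lum, with no call, was at 0, 0.05 and 0 TPM in EpiLC and 0.21, 0 and 0.09 TPM in CEpiLC. With the replicate block 5 feeder genes fell, and between 0 and 2 with single libraries left out. Of 16 tested genes of extraembryonic endoderm, 1 rose and 3 fell, with a summed level of 406 to 457 TPM in EpiLC and 401 to 494 TPM in CEpiLC, and Afp and Apoa1 had too few counts to test. That is 25% called, beside 42.2% of all tested genes. The fall of Lrp2, a lipoprotein receptor, was from 30.03 to 1.56 TPM. With the replicate block 3 of these rose and 6 fell, in the fit of only the 6 libraries 2 rose and 5 fell, and without CEpiLC replicate 1 or CEpiLC replicate 2, 2 rose. Of 11 tested trophoblast genes, 4 rose and 2 fell, with a summed level of 215 to 280.0 TPM in EpiLC and 514 to 551 TPM in CEpiLC. The 4 that rose took 390 to 455 TPM of the CEpiLC sum. Most of this was Cdx2, which went from 0.13 to 225 TPM on average, and Krt8, from 108 to 181 TPM. Cdx2 and Eomes, which are also streak genes, were among those that rose. Elf5 and Tpbpa had too few counts to test. Without CEpiLC replicate 2 the number that rose was 2. The number that fell was 1 in the fit of the 6 libraries, with the replicate block and without any 1 of EpiLC replicate 2, EpiLC replicate 3 or CEpiLC replicate 1. The part of other cell types in the differences above was not tested.

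Cadherins and factors of the epithelial to mesenchymal transition were called in both directions, and claudins, keratins and tight junction genes mostly downwards. A shift of cell state was not tested. Of 23 tested cadherins and factors of the epithelial to mesenchymal transition, 7 rose and 6 fell (median 0.31). Cdh2, N-cadherin, was at 42.8, 28.9 and 34.5 TPM in EpiLC and 87.3, 88.5 and 140.3 TPM in CEpiLC (log2 fold change 1.57 ± 0.24, adjusted p = 0.000187, edgeR), and Snai1, a repressor of epithelial genes, was at 3.78, 2.31 and 5.67 TPM in EpiLC and 15.3, 21.6 and 56.1 TPM in CEpiLC (log2 fold change 2.99 ± 0.50, adjusted p = 0.000411). Epcam, an epithelial adhesion protein, was at 234, 275 and 304 TPM in EpiLC and 151, 181 and 143 TPM in CEpiLC (log2 fold change -0.76 ± 0.09, adjusted p = 2.08e-05). Grhl3, an epithelial transcription factor, was at 1.00, 0.63 and 1.39 TPM in EpiLC and 4.98, 6.91 and 13.8 TPM in CEpiLC. None of the 4 had overlapping groups. Epcam and Grhl3, both epithelial, thus differed in direction. Among the other falls, Ovol2 went from 3.81 to 1.84 TPM, Esrp1 from 54.7 to 28.2 TPM and Snai3 from 3.93 to 2.07 TPM on average. Snai3 was not called without EpiLC replicate 2 (-0.59) or CEpiLC replicate 2 (-0.89). Of 21 tested claudins, keratins and tight junction genes, 10 fell and 3 rose (median -0.35). Cldn7 was at 120.4, 165 and 149.6 TPM in EpiLC and 32.2, 52.3 and 33.9 TPM in CEpiLC (log2 fold change -1.85 ± 0.18, adjusted p = 4.08e-06, edgeR), and Cldn3 and Cldn1 fell from 60.1 to 19.99 TPM and from 3.22 to 0.3 TPM. Cldn4 was at 34.4, 46.2 and 37.3 TPM in EpiLC and 61.97, 86.8 and 74.3 TPM in CEpiLC and Krt19 at 22.7, 31.9 and 21.4 TPM in EpiLC and 45.5, 98.7 and 58.6 TPM in CEpiLC, both higher with no overlap. The third that rose was Krt8, which was not called without EpiLC replicate 3 or CEpiLC replicate 2 (0.61 in both).

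Matrix and guidance genes were called in both directions at similar rates. Of 39 tested collagens, laminins and integrins, 11 rose and 10 fell, that is, 28.2% and 25.6%, beside 22.1% and 20.1% of all tested genes. Lamb1, a laminin chain, was at 52.2, 53.8 and 53.04 TPM in EpiLC and 102, 131 and 195 TPM in CEpiLC (log2 fold change 1.43 ± 0.22, adjusted p = 0.000187, edgeR), and Itga3, the alpha 3 integrin that binds laminin, was at 44.3, 47.4 and 38.9 TPM in EpiLC and 10.8, 13.5 and 10.5 TPM in CEpiLC (log2 fold change -1.90 ± 0.16, adjusted p = 1.03e-06). The groups of both were separate. Of 40 tested axon guidance ligands and receptors, 14 rose and 10 fell, that is, 35% and 25%. Nrp2, a semaphorin receptor, was at 2.44, 1.44 and 2.43 TPM in EpiLC and 57.9, 26.7 and 29.03 TPM in CEpiLC (log2 fold change 4.19 ± 0.36, adjusted p = 1.4e-06, edgeR). Ntn1, netrin 1, was at 7.90, 3.36 and 4.50 TPM in EpiLC and 69.1, 53.4 and 35.95 TPM in CEpiLC, and its receptor Dcc rose from 0.217 to 1.87 TPM, while Unc5a, another netrin receptor, fell from 2.88 to 0.27 TPM. For Nrp2 and Ntn1 every CEpiLC value was above every EpiLC value.

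Glycolysis genes were mostly lower by small amounts, and the glucose transporter stood out. Of 24 tested, 13 fell and 4 rose (median -0.16). Slc2a1, the main glucose transporter here, was at 1364, 1295 and 1259 TPM in EpiLC and 394, 354 and 363 TPM in CEpiLC (log2 fold change -1.81 ± 0.10, adjusted p = 1.99e-08, edgeR), the only member of the list with a called difference over 1. Slc16a3, which exports lactate, was at 226, 253 and 218 TPM in EpiLC and 117, 123 and 119 TPM in CEpiLC (log2 fold change -0.95 ± 0.12, adjusted p = 3.78e-05). Ldhb, the lactate dehydrogenase subunit of oxidative tissues, was at 224, 236 and 212 TPM in EpiLC and 328, 421 and 511 TPM in CEpiLC (log2 fold change 0.91 ± 0.15, adjusted p = 0.000354). Each had separate groups. Slc2a3, another glucose transporter, rose by 0.60 ± 0.19, with overlapping groups, and was not called without EpiLC replicate 3 (0.40) or CEpiLC replicate 1 (0.36), nor in the fit of only the 6 libraries (0.60). Eno1 rose by 0.61, but its reads are shared with the near-identical copy Eno1b and its level is therefore uncertain. Of 73 tested subunits of oxidative phosphorylation, 12 rose and 4 fell, that is, 21.9% called in place of the 42.2% of all tested genes, with no called difference over 1 and a median of 0.05. Without EpiLC replicate 2 or EpiLC replicate 3 the number that rose was 7.

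Genes of the amino acid response were called mostly downwards. Of 20 tested genes of this response and of serine synthesis, 12 fell and 1, Asns, rose (median -0.52). Atf4, its central transcription factor, was at 250.2, 311 and 274 TPM in EpiLC and 164, 154 and 149 TPM in CEpiLC (log2 fold change -0.83 ± 0.08, adjusted p = 3.1e-06, edgeR). Slc7a3, a transporter of cationic amino acids, was at 185, 198 and 194 TPM in EpiLC and 27.2, 23.6 and 18.04 TPM in CEpiLC (log2 fold change -3.03 ± 0.15, adjusted p = 8.54e-09), and Trib3, a target of ATF4, was at 12.2, 27.6 and 15.2 TPM in EpiLC and 5.44, 5.84 and 4.39 TPM in CEpiLC (log2 fold change -1.79 ± 0.26, adjusted p = 0.000114). The groups were separate for all 3, and EpiLC replicate 2 was the highest EpiLC library for 11 of the 12 genes that fell. The number that rose was 0 in the fit of only the 6 libraries, 2 without EpiLC replicate 2 and 0 without any other single library, where Asns was at 0.28 to 0.41. Cholesterol synthesis was not called as a block, with 4 higher and 5 lower of 22 tested, 40.9% called beside 42.2% of all tested genes. Ebp, a sterol isomerase, was at 13.9, 12.9 and 16.1 TPM in EpiLC and 55.3, 53.6 and 54.7 TPM in CEpiLC (log2 fold change 1.95 ± 0.10, adjusted p = 1.16e-08, edgeR), and Sqle, squalene epoxidase, was at 187, 221 and 267 TPM in EpiLC and 148, 144 and 156 TPM in CEpiLC. EpiLC replicate 3 was the highest EpiLC library for all 5 that fell. Without EpiLC replicate 3 only 2 fell, and 3 fell in the fit of the 6 libraries and without EpiLC replicate 2, CEpiLC replicate 1 or CEpiLC replicate 2.

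Cell cycle genes were called often, at 28 of 46 tested, but by small amounts, with 11 higher and 17 lower and a median of -0.05. Apart from Ccnd2, the large rises were of Ccne2, cyclin E2, at 13.9, 13.1 and 12.8 TPM in EpiLC and 26.1, 35.5 and 31.8 TPM in CEpiLC, and of Cdkn1a, the inhibitor p21, at 66.4, 54.7 and 61.5 TPM in EpiLC and 321, 277 and 282 TPM in CEpiLC (log2 fold change 2.28 ± 0.09, adjusted p = 1.84e-09, edgeR). Mycn fell and Mycl rose. Mycn was at 88.1, 90.3 and 92.3 TPM in EpiLC and 52.3, 37.1 and 35.8 TPM in CEpiLC (log2 fold change -1.09 ± 0.11, adjusted p = 7.49e-06), and Mycl at 13, 10.6 and 12.3 TPM in EpiLC and 21.6, 20.2 and 28.01 TPM in CEpiLC (log2 fold change 0.96 ± 0.14, adjusted p = 0.000125). No groups overlapped among these 4 genes. Without EpiLC replicate 2 the number of cell cycle genes that fell was 11. Cdkn1a is also a p53 target, and in the list of p53 targets and apoptosis genes 6 of 24 tested rose and 5 fell (median 0.06). That is 45.8% called, beside 42.2% of all tested genes. Bcl2l11, the apoptosis gene Bim, was at 38.7, 36.8 and 35.3 TPM in EpiLC and 16.1, 18.1 and 16.9 TPM in CEpiLC (log2 fold change -1.17 ± 0.08, adjusted p = 2.39e-07, edgeR), and Bbc3, a p53 target that promotes apoptosis, fell by 0.68 ± 0.10. Of 81 tested cytoplasmic ribosomal proteins, 32 rose and 0 fell in edgeR, none by over 1 (median 0.15), and 0 were lower at an unadjusted p of at most 0.05 or in DESeq2. The 32 were 39.5% of those tested, beside 42.2% called and 22.1% called higher among all tested genes. The summed level of all 81 genes, called or not, grew from 214376 to 215989 TPM in the EpiLC libraries to 232480 to 238595 TPM in the CEpiLC libraries. The number that rose was 19 without EpiLC replicate 3, 21 without CEpiLC replicate 1 and 18 without CEpiLC replicate 3.

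Among chromatin genes, falls outnumbered rises. Of 37 tested genes of DNA methylation and polycomb, 13 fell and 5 rose, although the median was 0.05. That is 48.6% called, beside 42.2% of all tested genes. Beside Dnmt3b, Jarid2, a subunit that guides polycomb complex PRC2, was at 123, 129.5 and 115 TPM in EpiLC and 36.8, 44 and 36.5 TPM in CEpiLC (log2 fold change -1.65 ± 0.08, adjusted p = 9.57e-09, edgeR), and Phc1 and Cbx7, subunits of PRC1, were at 259, 335 and 343 TPM in EpiLC and 90.7, 125 and 82.6 TPM in CEpiLC and at 27.03, 35.6 and 36.6 TPM in EpiLC and 12.7, 13.96 and 10.7 TPM in CEpiLC respectively. Epop, another PRC2 partner, was at 63.2, 58.02 and 63.7 TPM in EpiLC and 172, 116 and 119 TPM in CEpiLC (log2 fold change 1.15 ± 0.16, adjusted p = 7.62e-05). All 4 had separate groups. Pcgf3, Yaf2 and Mtf2 also rose, each by less than 1. Without EpiLC replicate 1 the number that rose was 2, and Yaf2 at 0.24 and Pcgf3 at 0.17 were among those no longer called. Pcgf3 was not called without EpiLC replicate 2 or CEpiLC replicate 3 either (0.17 and 0.16).

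Imprinted genes, expressed from one parental copy, were called at 18 of 31 tested, 11 higher and 7 lower (median 0.21). Peg10, a retrotransposon-derived gene, was at 104, 61 and 93.3 TPM in EpiLC and 661, 401 and 460.1 TPM in CEpiLC (log2 fold change 2.56 ± 0.22, adjusted p = 1.63e-06, edgeR). Plagl1, a zinc finger factor, was at 2.51, 2.58 and 3.81 TPM in EpiLC and 9.11, 9.72 and 10.4 TPM in CEpiLC, and Peg3 was at 39.1, 40.1 and 49.1 TPM in EpiLC and 72.4, 107 and 137 TPM in CEpiLC. Snrpn, a splicing factor subunit, was at 375, 408 and 497 TPM in EpiLC and 88.9, 112 and 80.2 TPM in CEpiLC (log2 fold change -2.17 ± 0.12, adjusted p = 2.02e-08), and Mest fell from 289.9 to 112 TPM and Magel2 from 22.2 to 3.57 TPM. All 6 had groups without overlap. Snrpn shares its transcript with Snurf, so that its reads could be split between both names. Of 17 tested germ cell genes, 4 rose and 3 fell, 41.2% called beside 42.2% of all tested genes. The largest rise was of Ifitm1, at 24.01, 19.5 and 19.1 TPM in EpiLC and 155, 121 and 279.5 TPM in CEpiLC (log2 fold change 3.14 ± 0.28, adjusted p = 1.84e-06, edgeR). The number of germ cell genes that fell was 1 with the stricter filter on low counts and without EpiLC replicate 3 or CEpiLC replicate 1. Of 22 tested heat shock and unfolded protein genes, 2 rose and 2 fell, 18.2% called beside 42.2% of all tested genes. Hsp90aa1 was at 3034, 3187 and 3213 TPM in EpiLC and 1969, 2148 and 1946 TPM in CEpiLC (log2 fold change -0.63 ± 0.05, adjusted p = 8.64e-07, edgeR), whereas Hsp90ab1 was at 5132, 5189 and 5201 TPM in EpiLC and 5819.9, 6098 and 5919 TPM in CEpiLC (log2 fold change 0.21 ± 0.04, adjusted p = 0.000856). The number that fell was 1 without EpiLC replicate 2, CEpiLC replicate 1 or CEpiLC replicate 2.

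Ranked by TPM instead of fold, the differences came from other genes. The 10 called genes with the largest gain in TPM were Eef1a1, Grsf1, Pabpc1, Rps12, Eno1, Rps2, Eno1b, Gm15772, Rpl23a and Rpl12, most of them of translation. Eef1a1, a translation elongation factor, rose by 2333 TPM with a log2 fold change of only 0.21. Grsf1, an RNA-binding protein of mitochondria, was the exception among them in fold. It was at 96.4, 95.8 and 106 TPM in EpiLC and 1503, 1142 and 1554 TPM in CEpiLC (log2 fold change 3.83 ± 0.11, adjusted p = 1.36e-10, edgeR), a gain of 1300.0 TPM on average. Pabpc1, the poly(A)-binding protein, was at 1717, 1670.1 and 1809.8 TPM in EpiLC and 2789, 2666 and 2822 TPM in CEpiLC (log2 fold change 0.68 ± 0.05, adjusted p = 4.15e-07). The 10 with the largest loss were Ptma, Actg1, Dnmt3b, Hsp90aa1, Pim2, Ppia, Slc2a1, Tuba1a, Tmsb10 and Gapdh, of which 3 code for actin, tubulin or thymosin of the cytoskeleton. Actg1 was at 5966, 6214 and 5444 TPM in EpiLC and 3759, 3975 and 4369 TPM in CEpiLC (log2 fold change -0.53 ± 0.07, adjusted p = 7.43e-05, edgeR). Tuba1a was at 2454, 2144 and 2125 TPM in EpiLC and 1486, 1322 and 1237 TPM in CEpiLC (log2 fold change -0.73 ± 0.08, adjusted p = 1.98e-05). Calls at such small folds were sensitive to single libraries: Rpl23a was not called without EpiLC replicate 1 (0.14), Rps2 kept its call only with CEpiLC replicate 2 left out (0.16 to 0.23 otherwise), Ppia was not called without replicate 1 of either group (-0.15 in both) or CEpiLC replicate 2 (-0.13), Gapdh kept it only with CEpiLC replicate 1 left out (-0.14 to -0.16 otherwise) and Gm15772 only with replicate 3 of either group left out (0.20 to 0.35 otherwise). TPM values sum to the same total in each library, so that a gain in one gene takes share from others.

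**Figure D5:**
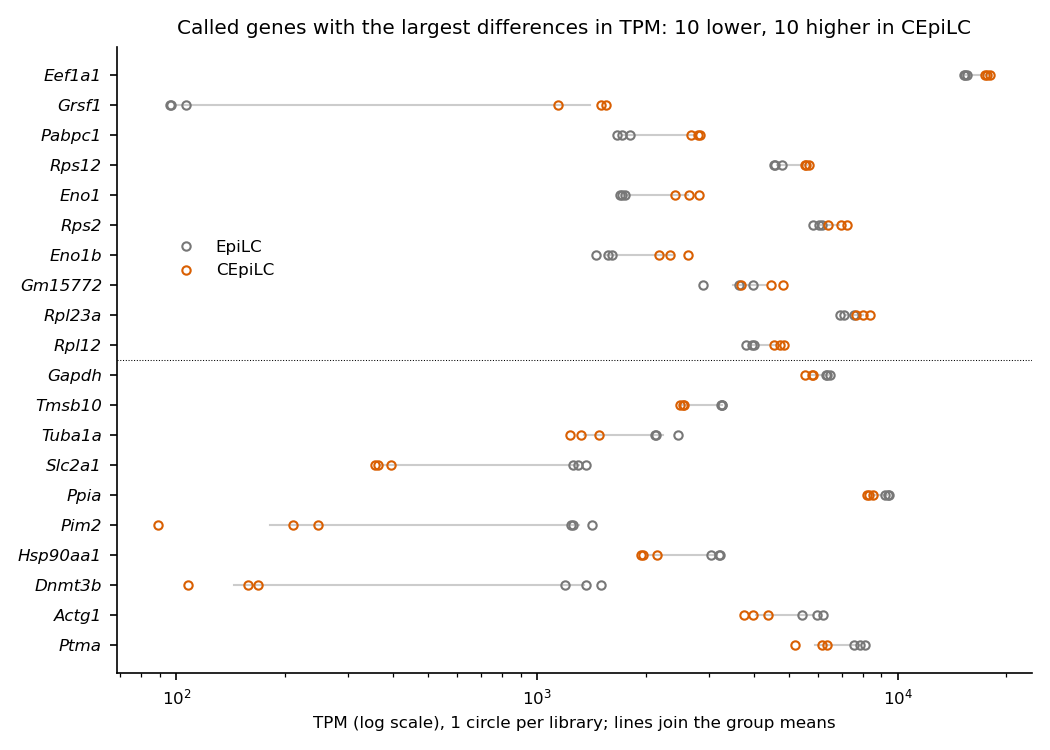
TPM on a log axis of the 10 called genes with the largest gain (above the dotted line) and the 10 with the largest loss (below it) in mean TPM, with a circle for each library, EpiLC in grey and CEpiLC in orange, and a line between group means. Grsf1, Dnmt3b, Pim2 and Slc2a1 moved by large folds, whereas Eef1a1 and the ribosomal genes moved by small folds at high levels.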

How the data were processed

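Polyadenylated RNA of the 6 cultures was sequenced as strand-specific, single-end reads. Per the labels and the submitters' processing notes, the authors used cutadapt 1.16, STAR 2.5.2a and RSEM 1.3.0 with the mm10 assembly, and RSEM's table of RefSeq genes was deposited for all samples. The deposited expected counts are RSEM estimates in which a read that fits more than 1 gene is divided among them; 2.59 to 3.43% of the values in a library were not whole, and all were rounded here. The deposited TPM values were scaled by the authors through RSEM and were used for levels, never for the test. Replicates were not pooled.

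Counts were tested with edgeR 4.0.16 (quasi-likelihood F test, TMM scaling, filterByExpr by group, limma 3.58.1, R 4.3.3) in 1 model of all 12 libraries with 4 group means and no covariates, for CEpiLC minus EpiLC. P-values were adjusted by Benjamini-Hochberg over 14196 genes, with 0.05 as the threshold for a call. Standard errors (SE) come from the F statistic; ± after a log2 fold change is an SE. The floor was 3 counts per library. Where all libraries of a group lay at or under it, the fold was bounded by the floor of that group's smallest library. Reads carry no molecular identifiers, so floors cover counting error only. On counts simulated for this comparison (14196 genes, 200 changed), edgeR recovered 77 of 100 genes changed by 1 and 93 of 100 changed by 2 on the log2 scale, with 9 false calls. DESeq2 recovered 79 and 90 of them, with 22 false calls. The simulation changed a far smaller share of genes than the 42.2% called here, so its rates are not estimates for the real comparison.

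The 41 gene lists and the genes named were chosen with earlier results of these data known. Named by rule were 4 markers, for each list up to 4 called members in each direction by fold with a mean of at least 1 TPM in a group, its most abundant member and members at the floor, and the genes with the largest folds and TPM differences overall. Fzd2, Nanog and members that complete a count of 5 or fewer were named after their values were seen. Spry3 was not in the table. Positions and promoter windows are RefSeq's on GRCm38.p6, found for 97.3% of genes in the table; 11004 of the tested genes had a window.

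Labels give the replicates numbers from 1 to 3 and call them biological, with no batch or date. Chi-square per degree of freedom between replicates was 7.35 to 24.5, so none was a repeat of another. After the group means were taken off, EpiLC and CEpiLC libraries with the same number correlated across genes (r of 0.120, 0.132 and 0.103, each above 0.1). Libraries with different numbers gave r of -0.123 to 0.004. The numbers were treated as possible pairs from these values alone. Library totals also fell from replicate 1 to replicate 3 in both groups, and their part in these correlations was not tested. The reported fit held no block, so its SE and p-values do not use this pairing. The fit with the block called 5706 genes, among them 89.5% of the reported calls. Alternatives were RLE and library size scaling, no filter and a stricter filter (30 counts in 3 libraries), DESeq2 1.42.0, a fit of the 6 libraries, the same with the replicate number as a block, and leaving out each library in turn. Some results are not reported here.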

Additional observations from a re-analysis of the deposited data

How the results depend on the processing

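The count of called genes was 5994 as reported and between 4828 (without EpiLC replicate 2) and 6003 (RLE scaling) under the alternatives, and each overall count kept within 1.5 times its value. The block by replicate number gave 5706 calls in the 6 libraries against 5404 without it. Beside the lists and genes given with it above, it ended the calls of Efnb2, Plet1 and Gm15772 (log2 fold changes -0.44, -1.05 and 0.32) and started that of Dusp4 (0.58). It changed no other call among the named genes that this fit tested. Efnb2 was also not called in the fit of the 6 libraries or without replicates 1 or 3 of either group (-0.26 to -0.46), nor Plet1 in that fit or without EpiLC replicate 2 or 3 or CEpiLC replicate 1 (-0.69 to -1.05), and Dusp4 was called without CEpiLC replicate 2 (0.80). In the fit of the 6 libraries Foxh1, Myc, Asns and Gm15772 lost their calls (-0.25, -0.51, 0.38 and 0.32), as did Foxh1 with library size scaling (-0.23), Gdf1 with DESeq2 (-2.41) and Rps2 with no filter (0.20). The share of calls that were higher in CEpiLC was 52.4%, 49.7% with RLE scaling and 55.3% with library size scaling, and no scaling moved the median of all genes by 0.1. Of 310 named genes, 49 changed their call or sign under at least 1 alternative, most of them when a library was left out. Named genes filtered out of the fits of the 6 libraries or of the stricter filter were not compared there, and their loss is not counted. Of 82 counts of list members, 30 moved by over 1.5 times. The cause was not tested. Genes without a call changed sign with a library left out: Ifitm2 ranged from -0.0743 to 0.131, Crabp2 from -0.212 to 0.00197, Sema6a from -0.221 to 0.0306, Atp5b from -0.0495 to 0.000988 and Pou5f1 from -0.163 to 0.0464. Depth limits the genes under 1 TPM, of which 30.8% were called, and 14 Hox genes were not tested.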

Other observations

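Genes outside the lists, chosen after their values were seen, are given here one by one. The 3 retrotransposon-derived genes Rtl8a, Rtl8b and Rtl8c summed to 55.0 to 64.0 TPM in the EpiLC libraries and 345 to 590.0 TPM in the CEpiLC libraries; they are near-identical copies, so that the split between them is uncertain. Apln, the ligand of the receptor Aplnr, was at 8.09, 8.92 and 15.5 TPM in EpiLC and 94.7, 107 and 59.1 TPM in CEpiLC, so that ligand and receptor both rose. Igfbp3, which binds insulin-like growth factors, was at 26.8, 31.3 and 25.6 TPM in EpiLC and 183, 349.6 and 255 TPM in CEpiLC (log2 fold change 3.23 ± 0.23, adjusted p = 2.79e-07, edgeR), and Alox15, a lipoxygenase, at 5.36, 3.69 and 4.43 TPM in EpiLC and 52.7, 115 and 104 TPM in CEpiLC (log2 fold change 4.32 ± 0.27, adjusted p = 9.34e-08). Ptk7, a co-receptor of planar cell polarity, was at 114, 103 and 112 TPM in EpiLC and 545, 413 and 476 TPM in CEpiLC (log2 fold change 2.13 ± 0.09, adjusted p = 3.65e-09), and Oat, an enzyme of ornithine metabolism, at 99.3, 93.1 and 105 TPM in EpiLC and 489, 414 and 411 TPM in CEpiLC (log2 fold change 2.16 ± 0.08, adjusted p = 8.68e-10). In each the groups did not overlap.

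Among genes outside the lists that were lower, also chosen after their values were seen, L1td1, an RNA-binding protein of pluripotent cells, was at 276, 272 and 288 TPM in EpiLC and 15.9, 41.3 and 15.9 TPM in CEpiLC (log2 fold change -3.50 ± 0.30, adjusted p = 1.41e-06, edgeR). Emb, embigin, was at 399, 432 and 352 TPM in EpiLC and 96.5, 109.6 and 98.7 TPM in CEpiLC (log2 fold change -1.95 ± 0.08, adjusted p = 1.78e-09). Tubb3, the neuronal tubulin, was at 149.9, 135 and 119 TPM in EpiLC and 40.7, 25.6 and 35.1 TPM in CEpiLC (log2 fold change -1.99 ± 0.17, adjusted p = 1.49e-06), and Stmn4, a neuronal stathmin, at 42.1, 41.4 and 32.4 TPM in EpiLC and 1.08, 2.72 and 1.25 TPM in CEpiLC (log2 fold change -4.55 ± 0.33, adjusted p = 3.65e-07). The groups were apart for all 4. Lmx1b, a homeobox gene of limb and midbrain, fell from 15.2 to 0.227 TPM on average.

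Eif3j1 was called higher although its values were 0.01, 0.09 and 0.09 TPM in EpiLC and 26.01, 35.5 and 0.09 TPM in CEpiLC, with the third CEpiLC library at the EpiLC level. Its copy Eif3j2 was at 145, 129 and 136 TPM in EpiLC and 103, 88.7 and 132 TPM in CEpiLC and was not called. Summed over both copies, the values were 145, 129 and 136 TPM in EpiLC and 129, 124 and 132 TPM in CEpiLC, and the groups overlapped. The reads of the 2 copies were divided by estimation, and the call of Eif3j1 is given as uncertain. Rps27, a ribosomal protein gene, was at 6.82, 9.11 and 10.96 TPM in EpiLC and 92.4, 6.02 and 6.01 TPM in CEpiLC, a single high library and no call.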
